A study of Mus musculus with 2 samples.

Results

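The genes described here are direct transcriptional targets of p53, with p53 itself. They were chosen by name, as 10 listed genes, through the probe sets that the platform annotation assigns to one of them and to no other gene. Of the 10, 8 had such probe sets, namely Mdm2, Ccng1, Bbc3, Pmaip1, Sesn1, Sesn2, Zmat3 and Trp53inp1, with 17 probe sets in all among 18193 genes that the annotation names singly. No probe set carried the name of Trp53, the gene of p53, or of Bax alone in the annotation used, so both are not analysed here and nothing below is a level of p53 itself. The cells were bEnd3, a line of brain microvessel endothelium from BALB/c mice, transformed by polyoma middle T antigen. A retrovirus delivered an siRNA against Smad4 to one group and a control siRNA (Control-siRNA) to the other, and both were selected with puromycin. Each group was 1 Affymetrix array of total RNA pooled from 2 infections, so replication is absent, no difference below was checked between cultures, and precision is limited by the number of arrays. The comparison asks which transcripts differ when Smad4, the shared partner of the receptor-activated Smads, is targeted.

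p53 is a transcription factor that is kept scarce in unstressed cells and accumulates after DNA damage and other stress. Mdm2 is the ubiquitin ligase that marks it for degradation, and because Mdm2 is itself a p53 target the pair forms a negative feedback loop. Other targets halt the cell cycle, repair DNA, restrain growth signalling through mTORC1 or start apoptosis at the mitochondrion, and many of them also answer to other factors. In endothelium p53 is known for restraining proliferation and angiogenesis, in part through secreted inhibitors such as thrombospondin.

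Promoter windows from RefSeq (build GRCm38.p6), reaching from 250 bases before a gene's start to 50 after it, were read for 5 of the 8 genes, as 8 windows. The chromosome of Pmaip1 was left out of this reading, and no window was available for Zmat3 and Trp53inp1. The windows of Sesn1, Mdm2 and Ccng1 that held a match to the p53 half-site consensus of 10 bases are shown because these genes, alike in this feature, differed between the arrays in opposite directions. Each is given 5′ to 3′ on the strand of the gene, and capitals mark the half-site match. The consensus reads the same on both strands, and of all 32851 windows of this length 8.36% held at least 1 match.

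Sesn1, chr10:41887189-41887488, plus strand: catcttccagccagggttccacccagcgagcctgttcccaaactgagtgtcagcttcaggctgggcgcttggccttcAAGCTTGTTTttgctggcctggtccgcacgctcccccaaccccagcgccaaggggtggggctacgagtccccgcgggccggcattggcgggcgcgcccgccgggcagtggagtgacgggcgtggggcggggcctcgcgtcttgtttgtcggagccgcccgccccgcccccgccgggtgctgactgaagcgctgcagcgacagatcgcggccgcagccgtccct
Mdm2, chr10:117710709-117711008, minus strand: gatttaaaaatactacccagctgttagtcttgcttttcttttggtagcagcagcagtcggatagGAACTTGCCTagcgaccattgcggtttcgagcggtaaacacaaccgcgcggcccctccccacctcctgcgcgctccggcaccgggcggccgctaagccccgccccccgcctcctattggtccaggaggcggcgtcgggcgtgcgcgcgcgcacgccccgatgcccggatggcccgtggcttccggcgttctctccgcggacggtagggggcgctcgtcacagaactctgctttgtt
Ccng1, chr11:40755237-40755536, minus strand: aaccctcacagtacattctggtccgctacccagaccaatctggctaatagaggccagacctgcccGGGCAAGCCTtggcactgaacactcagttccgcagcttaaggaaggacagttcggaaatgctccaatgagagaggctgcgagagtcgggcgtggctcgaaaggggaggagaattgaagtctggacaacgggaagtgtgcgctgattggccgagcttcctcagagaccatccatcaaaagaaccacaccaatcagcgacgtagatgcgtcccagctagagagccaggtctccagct

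The matches began 173 bases before the start in Sesn1, 186 before it in Mdm2 and 185 before it in Ccng1. Sesn1 has another start with a window of its own, and that window held no match. The windows of Bbc3 (3 starts) and Sesn2 (1 start) held none either. A full site, meaning 2 half-sites with at most 13 bases between them, was in 0 of the 8 windows and in 0.0731% of all. These are matches of letters in short windows. The known p53 response elements of Mdm2 lie in its first intron, and no window here was chosen to reach them.

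Signals below are MAS5 values after quantile normalization, in arbitrary units, and a log2 ratio is the sample labelled Smad4-siRNA over the control sample. In a pair of signals the sample labelled Smad4-siRNA comes first. A signal under the median of its array (22.9) was treated as unmeasured, and where 1 side was under this floor the ratio was taken against the floor and is given as a bound. A gene was represented by its brightest probe set. The SD between probe sets of one gene, pooled over 4541 genes, was 0.47 on the log2 scale. It serves as a technical error and does not hold the spread between cultures or arrays. A ratio that exceeds it has therefore passed no test.

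The arrays stand apart in ways that bear on every value below. The 3 probe sets of Smad4 gave log2 ratios of 0.35, 0.58 and 0.25 (-0.07, 0.21 and -0.12 as deposited), so its transcript showed no fall, and the words "labelled Smad4-siRNA" are kept for this reason. Of 12 endothelial markers, 11 reached the floor in the control sample and 5 in the other, with summed signals of 12403 and 688. Eng gave 749 and 508 of these sums by its brightest probe set, and its other probe set had a log2 ratio of -1.90. Pecam1 and Cldn5, which define endothelium, had 1885 and 1646 in the control sample and 1.46 and 1.33 in the other. Of 10 fibroblast markers, 8 were measured in the sample labelled Smad4-siRNA and 1 in the control, with summed signals of 20299 and 154, and pericyte and smooth muscle markers summed to 3011 and 91.9. Of the 5 genes measured in the latter list, 4 were at least 2-fold higher, the brightest being Acta2 (1634 against 33.5). Des was at least 1.58-fold lower (13.7 against 36.2), and Myh11, Cnn1 and Rgs5 were under the floor in both samples. Astrocyte, leukocyte, epithelial and neuronal or oligodendrocyte lists had 2, 2, 1 and 0 genes measured in either sample. Among these, the macrophage marker Cd68 was 23.3-fold lower (35.2 against 821). Slc1a3 of astrocytes was at least 2.70-fold higher (61.7 against 8.12) and Epcam of epithelium at least 3.57-fold higher (81.7 against 8.54). By their brightest probe sets Gja1 and Csf1r were within 2-fold. The 6 probe sets of Gja1 disagreed, with log2 ratios from -0.998 to 1.57. Ptprc, Gfap and Cdh1 were under the floor in both samples. Xist was 4495 in the sample labelled Smad4-siRNA and 20.7 in the other, whereas the Y-linked Eif2s3y, Kdm5d and Uty were 0.349, 4.69 and 4.03 there against 324, 122 and 112. The siRNA and these other differences between the cell populations cannot be told apart, and what part each has in the values of p53 targets was not tested. Fewer cells of a type and less RNA per cell cannot be told apart in bulk RNA either.

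Across the 8 genes, Sesn1, Trp53inp1 and Pmaip1 were at least 2-fold higher in the sample labelled Smad4-siRNA, none was at least 2-fold lower (Mdm2 was so as deposited and after centring), and 5 lay between. Among all 11573 genes that reached the floor on at least 1 array, 16.0% were past 2-fold upward and 15.8% were past it downward. The 3 genes make up 37.5% of the 8, a share that rests on few genes and includes Pmaip1, which reached the floor only where it is high. Of the 8 log2 ratios 5 were above 0 (62.5%, against 44.5% of all genes), and their median was 0.68, where all genes had a median of -0.11. Mdm2, Bbc3 and Sesn2 were below 0. The targets thus did not differ in one common direction.

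**Figure D1:**
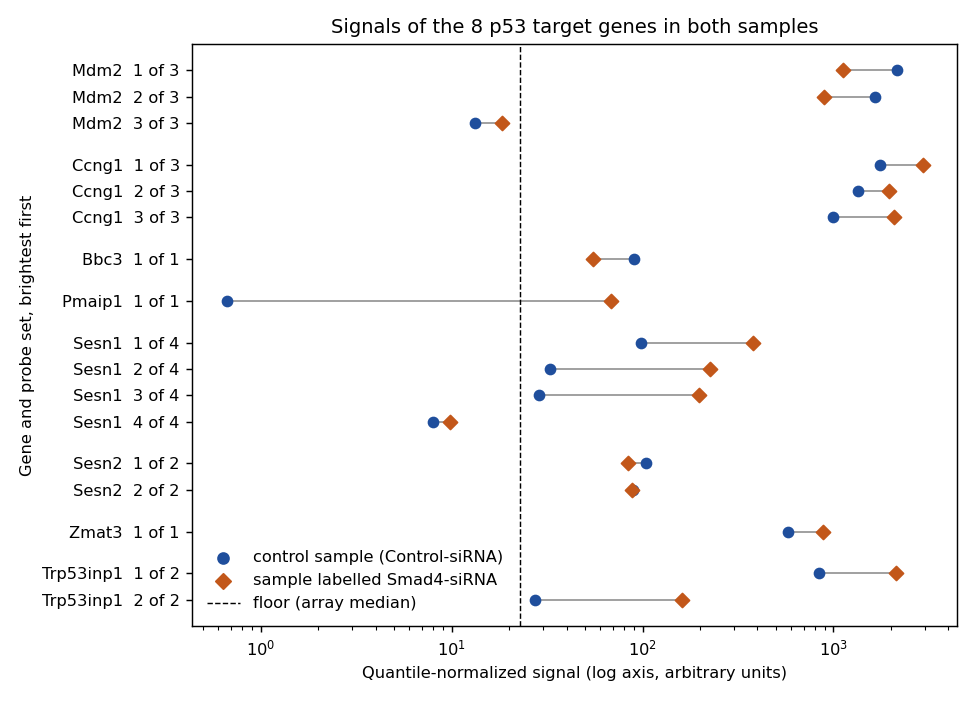
Quantile-normalized signal (log axis, arbitrary units) of every probe set of the 8 genes in the control sample (circles) and the sample labelled Smad4-siRNA (diamonds), with a dashed line at the floor of 22.9. The bright probe sets of Mdm2 lie lower in the sample labelled Smad4-siRNA, those of Ccng1, Sesn1 and Trp53inp1 lie higher, those of Sesn2 nearly coincide, and Pmaip1 lies far under the floor in the control.

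Mdm2, the main inhibitor of p53 and the target that closes the feedback loop, was lower. Its brightest probe set read 1125 in the sample labelled Smad4-siRNA against 2140 in the control, a log2 ratio of -0.93 or a 1.90-fold difference. The next had 897 and 1652, a log2 ratio of -0.88. Both probe sets thus gave nearly the same difference, with an SD of 0.0333 between them, and the difference exceeds the pooled technical SD. The last, with 18.4 and 13.3, was under the floor in both samples and gives no ratio. It is the only one without a suffix in its name, so Mdm2 has no value when suffixed probe sets are left out. Mdm2 lay just inside the 2-fold limit, and as deposited, with log2 ratios of -1.28 and -1.26, it lay outside. Of the 11573 genes, 17.6% had a lower ratio.

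Ccng1 encodes cyclin G1, a p53 target that brings the phosphatase PP2A to Mdm2 and so acts in the same loop. Unlike Mdm2, it was higher in each of its 3 probe sets. The brightest had 2934 against 1750, a log2 ratio of 0.75. The others had 2072 against 1000.3, a log2 ratio of 1.05, and 1949 against 1345, a log2 ratio of 0.53. Their mean was 0.78 with an SD of 0.26, and as deposited the ratios were 0.46, 0.69 and 0.19. So 1 probe set of Ccng1 was past 2-fold and the others were within it. All 3 lay above 0 and the measured ones of Mdm2 below it. Probe sets of a gene read the same arrays and are not replicates. These inhibitors of p53 therefore differed in opposite directions on the same arrays.

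The cell death genes of the list encode BH3-only proteins, which unleash Bax and Bak at the mitochondrial membrane. Bbc3, the gene of Puma, read 55.2 against 90.2. This is a log2 ratio of -0.71 (1.64-fold lower) from its only probe set, and -0.63 as deposited. Pmaip1, the gene of Noxa, had 68.3 in the sample labelled Smad4-siRNA and 0.667 in the other, far under the floor. Against the floor this is at least 2.99-fold higher, again from 1 probe set. The size of the ratio beyond this bound is set by how a signal under the floor is treated, so no fold other than the bound is read from it. Puma binds all the main survival proteins of the Bcl2 family, whereas Noxa prefers Mcl1. Their genes lay on opposite sides of 0.

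**Figure D2:**
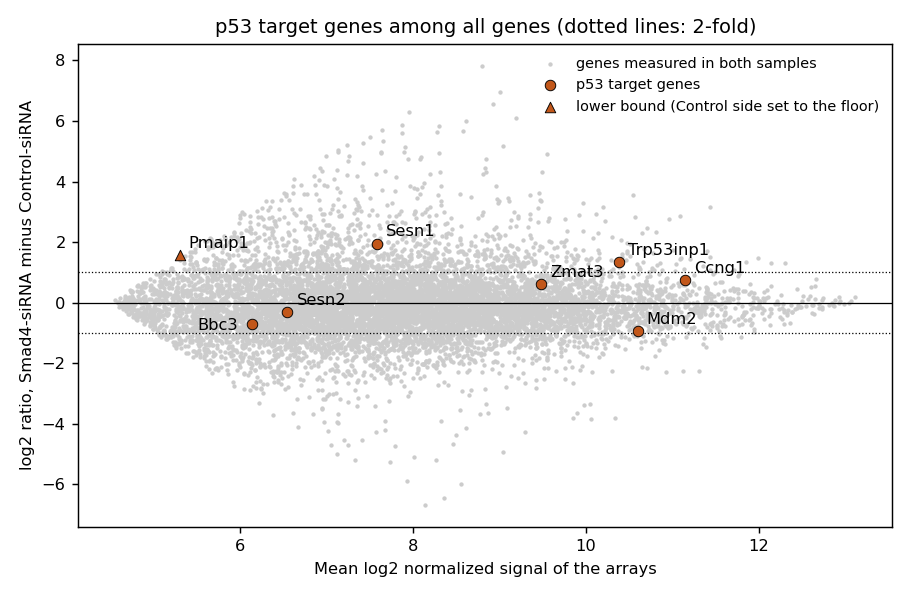
The log2 ratio of each gene against its mean log2 signal, for genes measured in both samples (grey) and for the 8 p53 target genes (orange, with a triangle for the bound of Pmaip1, drawn with its Control side at the floor). Dotted lines mark 2-fold. Sesn1, Trp53inp1 and Pmaip1 lie above the upper line, and the other 5 genes lie between the lines, Mdm2 closest to the lower one.

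The sestrins are stress proteins that restrain mTORC1, and Sesn2 also serves as a leucine sensor. Sesn1, a classical p53 target, was higher in each of its 3 measured probe sets, the brighter ones of which carry a suffix for shared sequence. They had 378 in the sample labelled Smad4-siRNA against 97.6, 226 against 32.6, and 198 against 28.8, with log2 ratios of 1.95, 2.80 and 2.78. The mean was 2.51 with an SD of 0.48, and the ratio of the brightest probe set, 3.87-fold, was the smallest of them. The fourth probe set had 9.77 and 7.94, under the floor in both samples. In 93.0% of all genes the ratio was lower than that of Sesn1, the highest position among the 7 genes measured in both samples.

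Sesn2 differed little. Its probe sets had 84.1 in the sample labelled Smad4-siRNA against 104 and 88.2 against 89.5, with log2 ratios of -0.31 and -0.02, both smaller than the pooled technical SD. Each measured probe set of Sesn1 had a higher ratio than those of Sesn2, though probe sets of a gene read the same arrays and are not replicates. The remaining sestrin gene, Sesn3, taken from the wider p53 list, had probe sets of opposite sign. The brighter had 509 against 326, a log2 ratio of 0.64, and the dimmer 61.6 against 104, a log2 ratio of -0.76. Within the family, then, Sesn1 alone had probe sets that all lay past 2-fold on one side, apart from its unmeasured one.

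Trp53inp1 encodes a stress-induced protein that promotes phosphorylation of p53 and takes part in autophagy. Its bright probe set had 2122 in the sample labelled Smad4-siRNA and 844 in the other, a log2 ratio of 1.33 (2.52-fold). Its dim one had 160.0 against 27.3, a log2 ratio of 2.55 (5.86-fold). Both were higher, but they were unlike in size, with an SD of 0.86 that exceeds the pooled technical SD. As deposited the ratios were 0.98 and 2.59, so that the brightest probe set lay just under 2-fold. Its relative Trp53inp2, an autophagy gene, was 2.19-fold higher (255 against 117). As deposited its log2 ratio was 0.96, just under 2-fold, and its other probe set was under the floor in both samples.

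Zmat3, which encodes an RNA-binding zinc finger protein that acts on splicing and mRNA stability downstream of p53, had 882 in the sample labelled Smad4-siRNA and 578 in the other. The log2 ratio of 0.61 from its only probe set exceeds the pooled technical SD. As deposited it was 0.22, which does not.

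**Figure D3:**
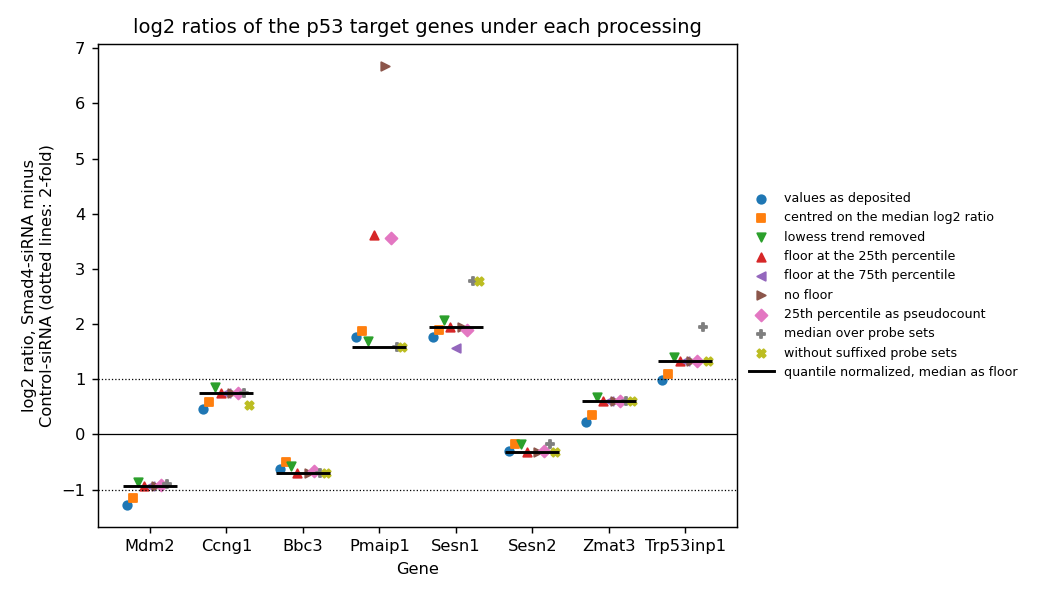
The log2 ratio of each of the 8 genes (sample labelled Smad4-siRNA over control) with quantile normalization and the array median as floor (black bars) and under 9 other ways of processing (symbols), with dotted lines at 2-fold. Each gene keeps its sign in every setting that gave it a value (8 of the 9 for Mdm2, Bbc3, Pmaip1 and Sesn2), Mdm2 passes below -1 as deposited (-1.28), and Pmaip1 runs upward from its bound of 1.58 as the treatment of its Control signal, which lies under the floor, changes.

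The wider pathway was followed through 77 other genes listed by role, of which 74 had a probe set of their own and 70 reached the floor on at least 1 array. In all, 13 were at least 2-fold higher (18.6%, beside 16.0% of all genes), 9 were at least 2-fold lower (12.9%, beside 15.8%), and 48 lay between. The list median was -0.21, beside -0.11 for all genes. These shares are near those of all genes and are no result about the pathway. The role groups below are small, and their counts, to be read beside the same shares of all genes, are no result about a group.

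Among 12 upstream kinases, activators and cofactors, 0 were at least 2-fold higher, 1 was lower and 11 lay between, with a median of -0.35. Ppp1r13b, whose product ASPP1 steers p53 to death genes, was 4.87-fold lower (91.5 against 445), by a single probe set that carries a suffix for shared sequence. The DNA damage kinase gene Atm had probe sets that disagreed, with log2 ratios of -0.21 and 1.73. Cdkn2a, whose Arf product holds Mdm2 away from p53, had 2.92 in the sample labelled Smad4-siRNA and 31.8 in the other, at least 1.39-fold lower against the floor.

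Among 7 inhibitors of p53, Mdm4 was higher and Sirt1 lower by at least 2-fold. Mdm4, the partner of Mdm2 that blocks the activation domain of p53, had 663 in the sample labelled Smad4-siRNA and 173 in the other in its brightest probe set, a log2 ratio of 1.94. The next had 124 against 71.0, a log2 ratio of 0.81, while a dim one pointed the other way with a bound of -0.43. The brightest probe set of Mdm4 may read sequence shared with other transcripts, as its suffix marks. By that probe set Mdm4 and Mdm2 (log2 ratio -0.93) differed in opposite directions. The deacetylase gene Sirt1 was 5.35-fold lower (40.8 against 218). Ppm1d, a phosphatase gene that p53 induces and that switches p53 off, gave 0.11 and 0.16 on the log2 scale from its brighter and dimmer probe set, and -0.09 and 0.07 as deposited. Of the p53 relatives, Trp63 reached the floor in the sample labelled Smad4-siRNA only (37.0 against 7.98, at least 1.62-fold higher) and Trp73 in neither sample.

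**Figure D4:**
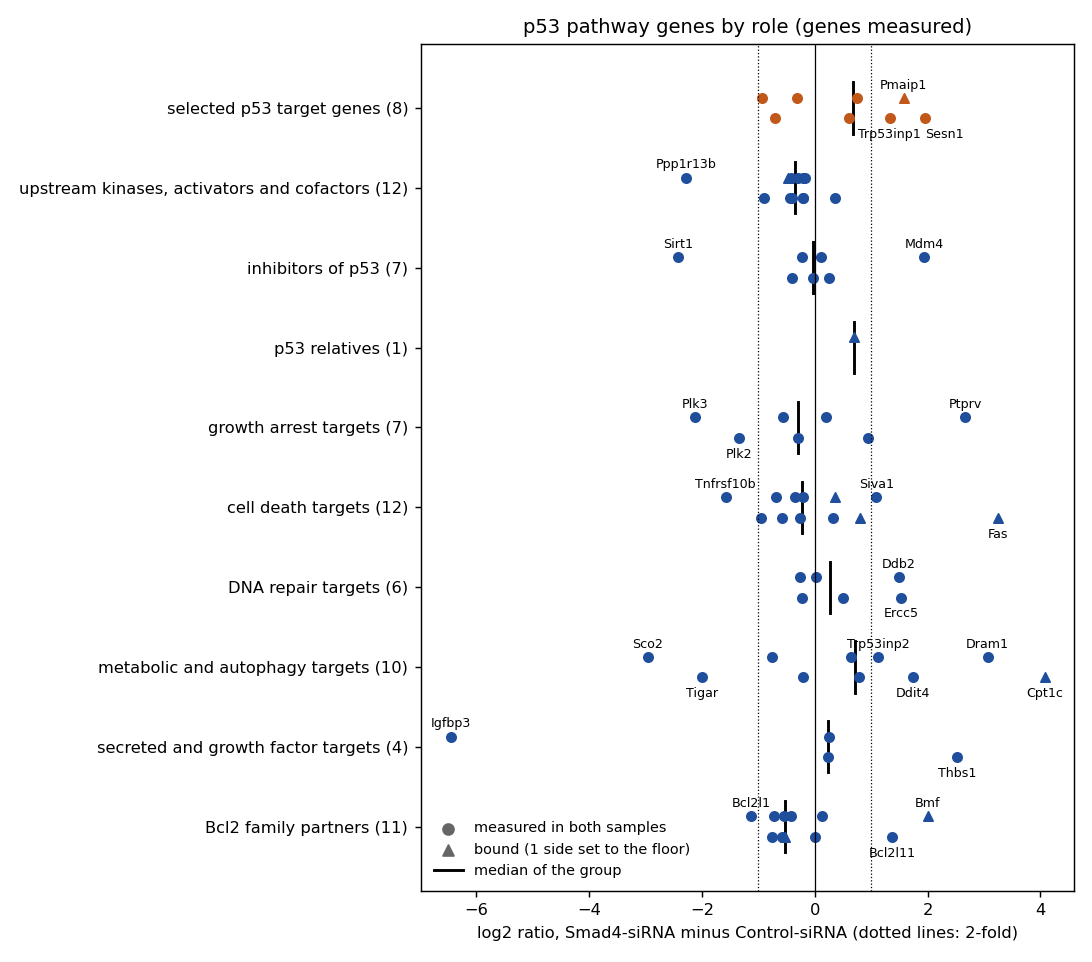
The log2 ratio (sample labelled Smad4-siRNA over control) of the 8 p53 target genes (orange) and of the other p53 pathway genes by role (blue), with triangles for bounds, black bars for group medians and names for genes at least 2-fold apart. Most groups hold genes on both sides of 0, and group medians run from -0.52 for Bcl2 family partners to 0.72 for metabolic and autophagy targets.

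Of 7 measured growth arrest targets, 1 was at least 2-fold higher (beside 16.0% of all genes), 2 were lower (beside 15.8%) and 4 lay between. Cdkn1a, the gene of the Cdk inhibitor p21 and the best known arrest target, was 1399 in the sample labelled Smad4-siRNA and 2059 in the other, a log2 ratio of -0.56, and its other probe set gave -0.45. As deposited they were -0.90 and -0.85. Cdkn1a thus lay on the same side of 0 as Mdm2 in both of its probe sets. The polo-like kinase genes Plk3 and Plk2 were 4.36-fold and 2.55-fold lower, and the phosphatase gene Ptprv was 6.34-fold higher.

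Among 12 cell death targets, 2 were higher, 1 was lower and 9 lay between. The death receptor gene Fas was 219 in the sample labelled Smad4-siRNA and 18.9, under the floor, in the other, at least 9.56-fold higher. Another death receptor gene, Tnfrsf10b, was 2.99-fold lower (25.5 against 76.4). Siva1 was 2.14-fold higher by its brightest probe set, which carries a suffix for shared sequence. That is a log2 ratio of 1.09, or 0.80 as deposited, and its other probe sets gave from 0.48 to 1.11. Aen, which encodes a p53-induced nuclease, had log2 ratios of -0.95, -1.07 and -1.45 in the probe sets measured in both samples. Its other probe set was at least 5.13-fold lower (21.6 against 117). Fas and Tnfrsf10b thus lay on opposite sides of 0, as Pmaip1 and Bbc3 did. A further receptor gene of this group, Eda2r, had a log2 ratio of -0.68.

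Of 6 DNA repair targets, Ercc5 (2.90-fold) and Ddb2 (2.82-fold) were higher, 0 were at least 2-fold lower, and Pcna had a log2 ratio of -0.26. The other probe set of Ddb2 was 1.77-fold higher. Ercc5, Ddb2 and Xpc serve nucleotide excision repair, and Xpc had a log2 ratio of -0.23. Metabolic and autophagy targets had 4 of 10 measured genes at least 2-fold higher (beside 16.0% of all genes), 2 lower (beside 15.8%), 4 between and a median of 0.72, and with so few genes these counts are no result about the group. Cpt1c, a brain-type carnitine palmitoyltransferase gene, was at least 16.9-fold higher (386 against 2.25), the autophagy gene Dram1 8.36-fold (471 against 56.4) and the mTORC1 inhibitor gene Ddit4 3.36-fold (1289 against 384). Sco2, which serves the assembly of cytochrome oxidase, was 7.78-fold lower, and Tigar, which lowers glycolytic flux, 3.98-fold lower. The only probe set of Sco2 carries a suffix for shared sequence.

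Of 4 measured secreted and growth factor targets, Thbs1, the gene of an inhibitor of angiogenesis, was 5.76-fold higher (700 against 122), and Igfbp3, which binds insulin-like growth factors, was 87.9-fold lower (35.0 against 3081). The endothelial and fibroblast markers that differed beside them are given above, and their part in these values was not tested.

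The other Bcl2 family genes listed encode survival proteins that Puma and Noxa bind, pore-forming proteins, and further BH3-only proteins. They had 2 of 11 measured genes at least 2-fold higher, 1 lower and 8 between. The higher ones, Bcl2l11, encoding Bim, and Bmf, are BH3-only genes and were 2.59-fold and at least 4.0-fold higher. The measured probe set of Bmf carries a suffix for shared sequence. Of the other BH3-only genes listed, Bid had a log2 ratio of -0.54, Bad 0.13 and Hrk a bound of -0.52. Bik was under the floor in both samples. Of the 5 probe sets of Bcl2l11, 4 had ratios from 0.88 to 1.45 and 1 had -0.06 (0.12 as deposited). Bcl2l1, encoding the survival protein Bcl-xL, was 2.19-fold lower, with log2 ratios of -1.13, -0.79 and -1.80. Mcl1, the partner of Noxa, had 1124 against 1501, a log2 ratio of -0.42. Bak1, the pore-forming partner of Bax, had a log2 ratio of -0.59.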

How the data were processed

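The authors deposited 1 linear signal intensity for each probe set and array, and the submitters' processing notes name MAS5. Its version, its scaling and any detection calls are not stated there. Per the labels, RNA of 2 infections was pooled for each array. The 2% trimmed means were 115 (sample labelled Smad4-siRNA) and 138 (control), while the medians, 24.9 and 21.0, stood in the opposite order. For this reason log2 signals were quantile normalized over 45101 probe sets (Python 3.11.15, numpy 2.4.6, pandas 2.3.3). This shifted ratios of bright genes upward, as for Zmat3 (0.22 as deposited, 0.61 after) and Mdm2 (-1.28 as deposited, -0.93 after).

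Names came from the platform annotation, updated by Entrez identifier against RefSeq. In all, 34945 probe sets had 1 gene and 932 had several and were left unnamed. Of the 18193 genes, 9466 reached the floor, the array median, on both arrays. With 1 array per group no test was made, and counts past 2-fold describe these arrays. The genes named were all members with all probe sets, label checks (Smad4, Xist, Eif2s3y, Kdm5d, Uty), Cdkn1a, Mdm4, Cdkn2a and Sesn3, and listed pathway genes at least 2-fold apart. Atm, Ppm1d, Trp63, Trp73, Pcna, Aen, Mcl1, Bak1, Pecam1, Cldn5, the astrocyte, leukocyte and epithelial markers, and the neighbours of the closing part were named after their values were seen. So were Xpc, Eda2r, Bid, Bad, Hrk, Bik, Eng, and the pericyte and smooth muscle markers. Members and lists were chosen with earlier results of these data known. The 9 alternatives were other scalings (as deposited, centred, lowess with fraction 0.3), floors at the 25th or 75th percentile or none, a pseudocount, the median over probe sets, and leaving out suffixed probe sets. The scripts were tested on simulated data.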

Additional observations from a re-analysis of the deposited data

How the results depend on the processing

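Mdm2 has no value without suffixed probe sets, and Bbc3, Pmaip1 and Sesn2 have none with the 75th percentile as floor. The 68 log2 ratios that the 9 alternatives gave for the 8 genes kept the sign they had with quantile normalization, and 62 moved by less than the technical SD of 0.47. The 6 others were upward for Pmaip1 (3.60 with a floor at the 25th percentile, 6.68 with none and 3.56 with a pseudocount, sizes set by the treatment of a signal under the floor), for Sesn1 (2.78 as the median over probe sets and without suffixed probe sets) and for Trp53inp1 (1.94 as the median over probe sets). Some of the 68 ratios could not move. A gene over the floor in both samples keeps its ratio when the floor is lowered or dropped. A gene with 1 probe set keeps its ratio as the median over probe sets. The counts of 68 and 62 include such ratios and so do not measure how firm a ratio is. The count of the 8 genes at least 2-fold lower was 0, but 1 (Mdm2) as deposited and 1 after centring. The count at least 2-fold higher was 2 as deposited, 2 when the 75th percentile was the floor, where 5 of the 8 were measured, and 3 otherwise. Pathway genes at least 2-fold lower numbered 9, and 5 when the 75th percentile was the floor, which left 53 genes measured. Those at least 2-fold higher ranged from 9 to 17 around 13. Over all genes the median log2 ratio was -0.11, and it was -0.23 as deposited and 0.0033 with the lowess trend removed. The higher genes were 50.3% of all genes past 2-fold, 43.4% as deposited and 56.9% with the lowess trend removed. Bbc3, Pmaip1 and Zmat3 rest on 1 probe set each. No paired analysis was possible because each group has 1 array.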

Other observations

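The genes that flank the 8 p53 targets were read in chromosomal order, taking the 5 nearest genes on each side that reached the floor on at least 1 array. Of these 80 neighbours, 6 were at least 2-fold higher (7.5%), 11 at least 2-fold lower (13.8%) and 63 between, beside 16.0% and 15.8% of all genes. None of the 10 neighbours of Mdm2 was 2-fold apart, and their median log2 ratio was -0.04, where Mdm2 had -0.93. The next gene on one side, Cpsf6, had -0.58 and that on the other, Slc35e3, 0.11. Around Sesn1, 2 neighbours were higher and 1 lower, with a median of 0.31. The flanking genes were Cep57l1 at 0.55 and Armc2 at 0.10, followed on the side of Armc2 by Foxo3, a forkhead factor gene, at 2.25 and Afg1l at -1.31. Ccng1 was flanked by Nudcd2 at 0.07 and Pttg1, the gene of securin, at 2.45, and of its neighbours Pttg1 and Hmmr (2.71) were higher and Rars (-2.12) was lower. Around Trp53inp1, 2 were higher and 1 lower, with the flanking genes Ccne2, a G1 cyclin gene, at 0.62 and Ndufaf6 at -0.66. Around Pmaip1 none was higher and 3 were lower. The neighbours of Sesn2 had 4 lower, 0 higher and a median of -0.65, while Sesn2 itself was at -0.31.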
